A study of Mus musculus with 6 samples.

Results

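Luminal and basal keratins of the mouse prostate are described here through 9 genes, chosen by name as markers of the epithelial layers, of 19938 genes that the arrays measured with a probe set of a single gene symbol. Each of the 9 had exactly 1 such probe set. RNA came from whole prostates of 3 AR3 transgenic mice and of 3 wild-type littermates, all aged 4 weeks, and each mouse had its own array. No treatment, strain or sex-hormone manipulation is named in the labels. AR3 is a splice variant of the androgen receptor that lacks the ligand-binding domain. Which promoter drives the transgene, and whether the mice come from 1 founder, is not given in the sources used here.

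Keratins are the intermediate filament proteins of epithelial cells, and each filament is built from pairs of a type I and a type II chain. In the prostate the simple-epithelium keratins Krt8 (type II) and Krt18 (type I) mark the secretory luminal cells, with Krt19 and Krt7 in luminal and ductal epithelium, while Krt5 (type II) pairs with Krt14 (type I) in the basal cells, where Krt15 and Krt17 are also known. Krt4 is a type II keratin of stratified, non-cornifying epithelia and a marker of luminal cells in the ducts near the urethra.

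Of the 9 keratins, Krt7 was the one that passed the test, at about 2-fold higher intensity in transgenic prostates. The partner pair of luminal cells, Krt8 and Krt18, the pair of basal cells, Krt5 and Krt14, and Krt19, Krt15, Krt17 and Krt4 did not pass. Thus 1 of 9 members was called at an adjusted p of 0.05 (limma, Benjamini-Hochberg adjustment over all probe sets), beside 1.64% of all genes. The genotypes did not overlap for 2 of 9 members, Krt7 and Krt4, beside 19.1% of all genes, and the same 2 had an unadjusted p under 0.05, beside 12.2% of all genes. The median log2 change over the members was 0.058, against 0.013 over all genes. In whole-tissue RNA, more cells of a type and more RNA per cell cannot be told apart.

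The proximal promoters of Krt7 and Krt8 are shown because these type II simple keratins lie in the same gene cluster on chromosome 15, where the test called the first and not the second. Each is the 250 bases before the transcription start in RefSeq, build GRCm38.p6, at chr15:101412153-101412402 on the plus strand for Krt7 and chr15:102004343-102004592 on the minus strand for Krt8. Capitals mark the GC box GGGCGG on either strand.
Krt7: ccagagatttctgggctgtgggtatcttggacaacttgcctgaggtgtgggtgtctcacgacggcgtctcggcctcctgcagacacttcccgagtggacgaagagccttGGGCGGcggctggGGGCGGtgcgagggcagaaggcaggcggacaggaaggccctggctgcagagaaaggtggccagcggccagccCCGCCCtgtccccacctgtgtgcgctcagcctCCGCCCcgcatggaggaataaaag
Krt8: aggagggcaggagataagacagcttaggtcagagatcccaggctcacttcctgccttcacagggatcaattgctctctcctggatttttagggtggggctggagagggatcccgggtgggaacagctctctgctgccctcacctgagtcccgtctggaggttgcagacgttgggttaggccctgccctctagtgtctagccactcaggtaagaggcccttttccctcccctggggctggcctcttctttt
The Krt7 stretch held 4 GC boxes, 16 CpG dinucleotides and 66.0% G and C, and that of Krt8 held 0 GC boxes, 3 CpG dinucleotides and 58.0% G and C. A GC box stood in 32.7% of the 32851 RefSeq promoter stretches of this length, whose median G and C share was 52.4%. The androgen receptor half-site AGAACA, searched on both strands, matched neither of them, nor the stretches of Krt18, Krt5 and Krt14, which also held 0 GC boxes. It stood in 16.1% of all stretches. The entry for Krt14 lies inside the annotated gene rather than at its outer start. These matches describe letters in a window, and promoters for the other 4 members were not used here.

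Intensities are the authors' deposited values on a linear scale. The background scale came from 1035 probe sets of olfactory receptor genes, taken as mostly silent in prostate, which was not tested. The 95th percentile of these probe sets ran from 66.9 to 91.9 over the 6 arrays. The median of all probe sets ran from 94.5 to 110.8. The labelled tissue was borne out by the secretory gene Pbsn, at 9343 ± 366 (SD, n = 3) in wild-type and 8078 ± 216 (SD, n = 3) in transgenic prostates. Seminal vesicle genes differed between mice of 1 genotype: the summed intensity of 9 such genes was 4882, 766 and 930 in wild-type mice 1, 2 and 3 and 3597, 2575 and 9932 in transgenic mice 1, 2 and 3. With 3 arrays a genotype, precision is limited by their number. Probes bind with different strength, so the level of 1 keratin was not set against that of another.

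Krt7, a type II keratin of simple and ductal epithelia, had intensities of 318, 334 and 363 in wild-type mice 1, 2 and 3 and of 758, 746 and 658 in transgenic mice 1, 2 and 3. Every transgenic mouse lay above every wild-type mouse, and the lowest transgenic value stood well clear of the highest wild-type value. The means were 338.2 ± 22.6 and 720.5 ± 54.9 (SD, n = 3 each). On the scale of log2(intensity + 16), Krt7 rose by 1.06 ± 0.09 (SE), a fold of 2.08 with a 95% interval from 1.80 to 2.40 and an adjusted p of 9.2e-04 in limma. Among the genes called higher, 93 rose further. Without wild-type mouse 1 and transgenic mouse 3, those of highest seminal vesicle signal in their genotype, the log2 change was 1.08 with an adjusted p of 0.0106 in limma, but the seminal vesicle sums of the mice that remain do not overlap between genotypes. Those same 2 mice had the lowest Krt7 of their genotypes.

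**Figure D1:**
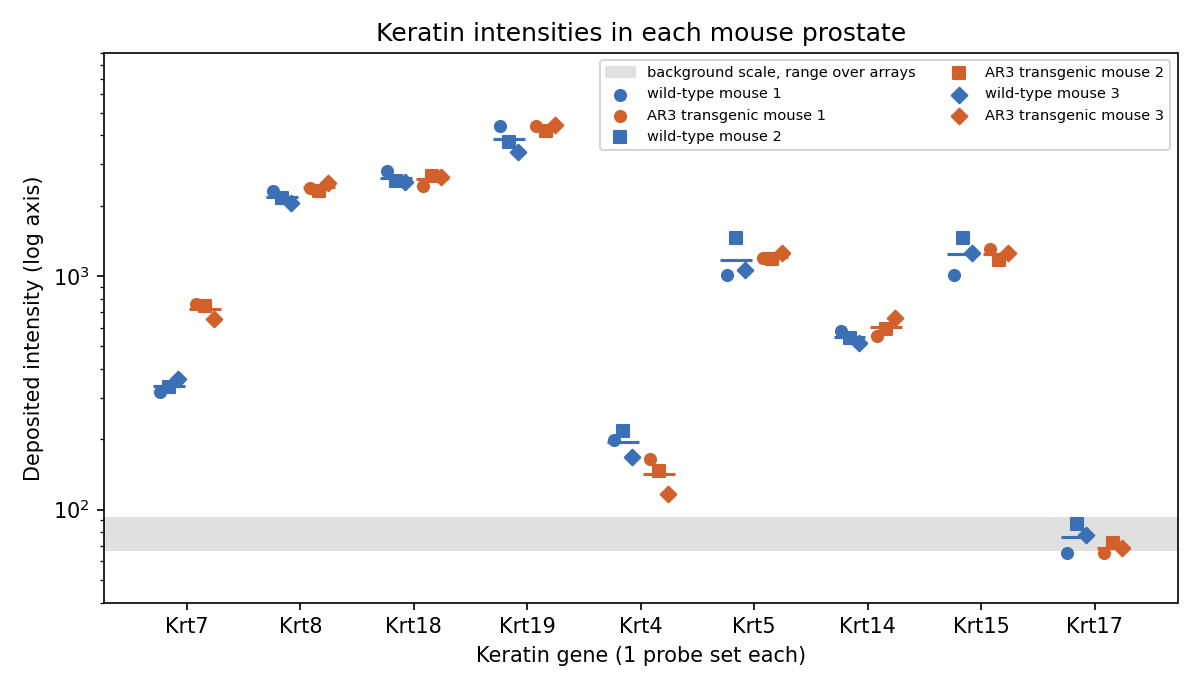
Deposited intensity (log axis) of the 9 keratins in each mouse, wild-type in blue and AR3 transgenic in orange, with marker shapes for mouse number, horizontal lines at group means and a grey band at 66.9 to 91.9, the background scale over the arrays. Krt7 sits at 318 to 363 in wild-type and 658 to 758 in transgenic mice, while Krt17 lies at or near the band.

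Krt8, the type II chain of luminal filaments, had intensities of 2319, 2147 and 2055 in the wild-type mice and 2386, 2311 and 2504 in the transgenic mice. The groups overlapped by a narrow margin, since transgenic mouse 2 lay just under wild-type mouse 1. Its log2 change was 0.14 ± 0.08 (SE), with a fold interval from 0.97 to 1.26 and an adjusted p of 0.53 in limma. Krt18, the type I chain that pairs with Krt8, had intensities of 2807, 2541 and 2516 in wild-type and 2434, 2689 and 2653 in transgenic mice. Its highest and lowest values were a wild-type and a transgenic mouse, both numbered 1. The log2 change of Krt18 was −0.016 ± 0.083 (SE), with a fold interval from 0.87 to 1.13 and an adjusted p of 0.96 in limma. Its sign turned to 0.020 with array weights.

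Krt19, a type I keratin that lacks the tail domain of other keratins, had intensities of 4373, 3749 and 3403 in wild-type and 4399, 4191 and 4418 in transgenic mice. Wild-type mouse 1 lay inside the transgenic range, and the other wild-type mice lay below it. The log2 change was 0.18 ± 0.10 (SE), with a fold interval from 0.96 to 1.34 and an adjusted p of 0.54 in limma. For these luminal keratins, then, the 95% intervals reached no fold above 1.34, while the interval of Krt7 began at 1.80.

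The change of Krt7 was set beside that of each other simple keratin through their within-array log2 difference. That difference does not show which chain is the more abundant. All 3 pairs share Krt7 and reuse the values behind its call, so the test gives no separate support for unequal change. Krt7 minus Krt8 was −2.81, −2.63 and −2.45 in wild-type mice 1, 2 and 3 and −1.63, −1.61 and −1.90 in transgenic mice. The genotypes did not overlap, and the difference rose by 0.91. Against Krt18 the difference rose by 1.07 and against Krt19 by 0.87, also without overlap in either case. For each of the 3 pairs the exact two-sided permutation p was 0.1, and 0.1 adjusted over the 3, the smallest value that 3 against 3 arrays can give.

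**Figure D2:**
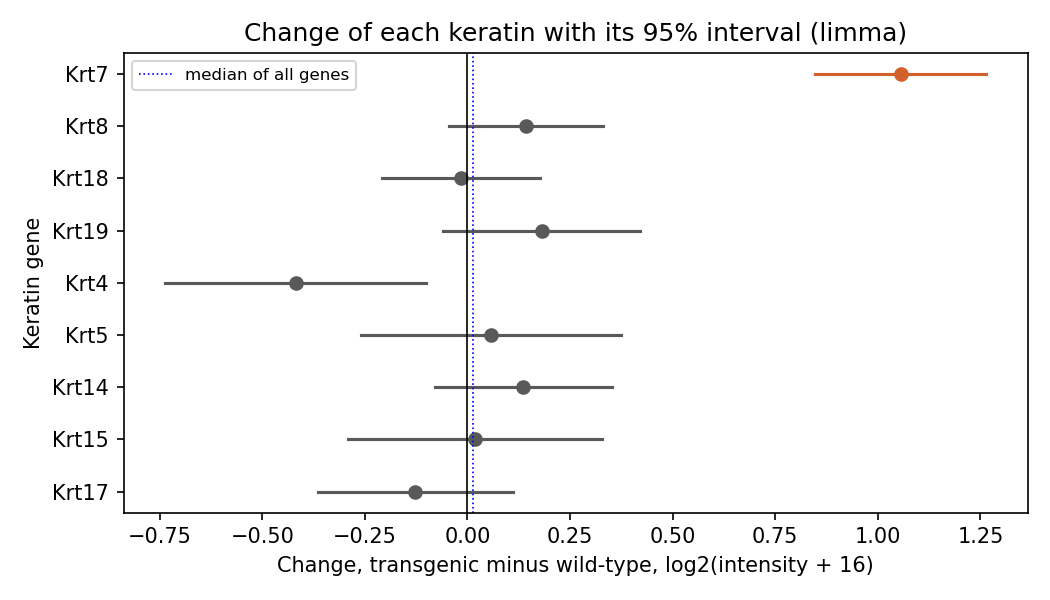
Change in log2(intensity + 16), transgenic minus wild-type, of each keratin with its 95% interval from limma; orange marks an adjusted p under 0.05 and the dotted line the median of all genes, 0.013. The interval of Krt7 runs from 0.85 to 1.26, that of Krt4 from −0.74 to −0.10, and the other 7 include 0.

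Krt4, the keratin of stratified epithelia and proximal ducts, had intensities of 199, 217 and 168 in wild-type and 164, 146 and 116 in transgenic mice. All 3 transgenic mice lay below all wild-type mice, but by a small gap, between wild-type mouse 3 and transgenic mouse 1. Its log2 change was −0.42 ± 0.14 (SE), with a fold interval from 0.60 to 0.93, an unadjusted p of 0.017 and an adjusted p of 0.28 in limma, so it did not pass. Of 8 measured markers of proximal duct luminal cells, 2 were called higher, 0 lower and 6 not, with 3 at an unadjusted p under 0.05 and a median log2 change of −0.0099. The retinaldehyde dehydrogenase Aldh1a1 rose by 0.99 ± 0.11 (SE), with an adjusted p of 0.0032, and the prostate stem cell antigen Psca by 0.97 ± 0.13 (SE), with an adjusted p of 0.0097 (limma). Without transgenic mouse 1 or transgenic mouse 2 the adjusted p of Psca was 0.053 and 0.064 (limma), and without wild-type mouse 1 and transgenic mouse 3 together it was 0.1001. The secreted chaperone Clu, at a log2 change of −0.33 (adjusted p 0.23), and Ly6d, at −0.57 (0.44), did not pass (limma).

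Krt5, the type II chain of basal cells, had intensities of 1011, 1451 and 1064 in wild-type and 1188, 1180 and 1257 in transgenic mice. The transgenic mice lay close together and inside the wild-type range, which wild-type mouse 2 set at the top. Its log2 change was 0.058 ± 0.136 (SE), with a fold interval from 0.84 to 1.30 and an adjusted p of 0.91 in limma, and it turned to −0.15 with array weights. Krt14, the type I partner of Krt5, had intensities of 582, 542 and 516 in wild-type and 555, 592 and 663 in transgenic mice. Transgenic mouse 1 lay within the wild-type range and the others above it. The log2 change of Krt14 was 0.14 ± 0.09 (SE), with a fold interval from 0.95 to 1.28 and an adjusted p of 0.61 in limma.

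Krt15, a type I keratin of basal and progenitor cells in stratified epithelia, had intensities of 1009, 1457 and 1259 in wild-type and 1303, 1173 and 1256 in transgenic mice. The group means, 1242 ± 225 and 1244 ± 65.6 (SD, n = 3 each), nearly coincided. Its log2 change was 0.017 ± 0.133 (SE), with a fold interval from 0.82 to 1.25 and an adjusted p of 0.97 in limma, and its sign turned with quantile normalization (−0.0059), median centring (−0.021) and array weights (−0.15). Krt17, a type I keratin induced in stressed and wounded epithelium, had intensities of 65.01, 87.0 and 77.9 in wild-type and 65, 71.8 and 68.5 in transgenic mice. These values lie within or below the range of the background scale over the arrays. Only wild-type mouse 2 stood above the 95th percentile of its own array, 77.4. A level of Krt17 was thus not shown on these arrays as a whole. Its log2 change was −0.13 ± 0.10 (SE), with an adjusted p of 0.68 in limma.

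Krt5 and Krt15 varied between wild-type mice by more than their means differed between genotypes. The SD of log2(intensity + 16) between wild-type mice was 0.28 for Krt5, 0.26 for Krt15 and 0.18 for Krt19, against 0.050, 0.076 and 0.042 between transgenic mice; this difference in spread was not tested. Of all 6 mice, wild-type mouse 2 had the highest Krt5, Krt15 and Krt17, and among the wild-type mice, mouse 1 had the lowest of each. Among the same 3 mice Krt8, Krt18, Krt19 and Krt14 had another order, with the highest value in mouse 1 and the lowest in mouse 3. The basal pair thus did not share an order among the wild-type mice: Krt5 stood at −0.225, 0.290 and −0.152 from its mean in wild-type mice 1, 2 and 3, and Krt14 at 0.022, −0.079 and −0.147. Those of Krt8 and Krt19 had the same order in the wild-type mice, at 0.023, −0.088 and −0.150 for Krt8 and 0.103, −0.118 and −0.257 for Krt19.

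**Figure D3:**
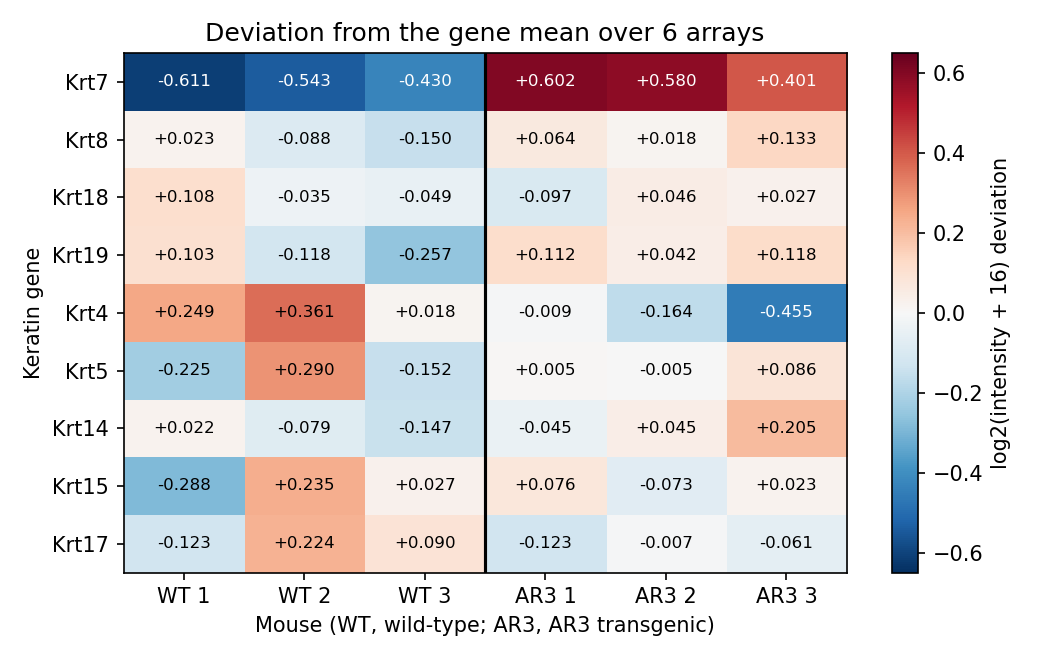
Deviation of each keratin from its own mean over the 6 arrays, in log2(intensity + 16), for wild-type (WT) and AR3 transgenic mice, with red above and blue below the mean. Krt7 is below its mean in every wild-type mouse and above it in every transgenic mouse, while Krt5, Krt15 and Krt17 are highest in wild-type mouse 2.

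Across the keratin family 52 genes were measured, 28 of type I and 24 of type II. Krt7 was the sole call in limma, with 0 genes called lower. This call of 1 in 52 stands beside 1.64% of all genes called. Of the 43 keratins outside the 9, none passed, and none had an unadjusted p under 0.05, beside 12.2% of all genes (limma). Their log2 changes ran from −0.23 to 0.25, with a median of 0.014. Means over all arrays lay above 91.9 on the background scale for 13 of the 43 and for 8 of the 9 luminal and basal keratins, all but Krt17. The 3 of smallest p were Krt26 (adjusted p 0.42), Krt87 (0.51) and Krt1 (0.52), and Krt26, with a mean of 25.1, lay below the background scale. On chromosome 15 the measured genes on either side of Krt7 were Krt80, at a log2 change of −0.083 (adjusted p 0.83), and Krt87, at 0.16 (0.51, limma). Krt8 and Krt18 are direct neighbours in the same cluster, although their chains are of different types, and neither passed. Cross-hybridisation among keratins of similar sequence, such as Krt14, Krt16 and Krt17, could not be separated without the probe sequences.

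**Figure D4:**
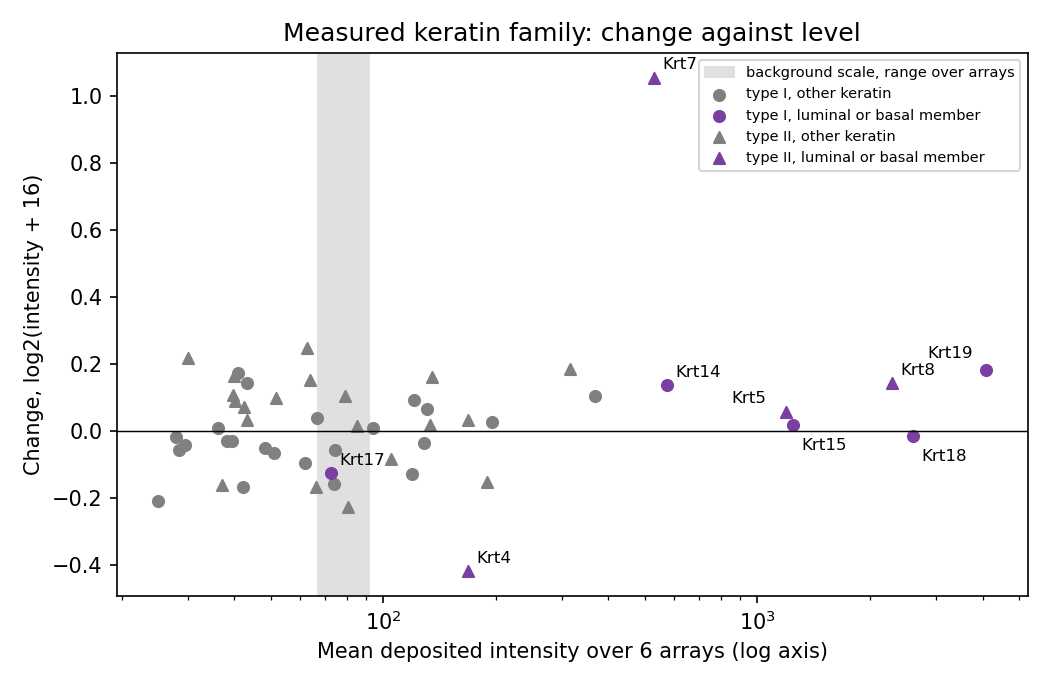
Change in log2(intensity + 16) against mean intensity over the 6 arrays (log axis) for 52 keratin genes, circles for type I and triangles for type II, purple for the luminal and basal members; the grey band is the background scale, 66.9 to 91.9. Krt7 stands at 1.06, Krt4 at −0.42, and the 43 other keratins lie between −0.23 and 0.25.

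The cell layers were also followed through markers other than keratins. For every list, counts at an unadjusted p under 0.05 stand beside 12.2% of all genes. Of 14 measured luminal markers, 1 was called higher, 0 lower and 13 not, with 5 at an unadjusted p under 0.05 and a median log2 change of 0.051: the surface peptidase Dpp4 rose by 0.65 ± 0.10 (SE), with an adjusted p of 0.019 in limma. Of 19 basal markers, 1 was called higher and 0 lower, with 3 at an unadjusted p under 0.05 and a median of 0.092: Perp, a membrane protein of desmosomes, rose by 0.48 ± 0.09 (SE), with an adjusted p of 0.044 in limma. That call was lost without any 1 of the 6 arrays (adjusted p 0.068 to 0.23), and the call on Dpp4 ended when any mouse except wild-type mouse 1 was left out (adjusted p up to 0.12). The luminal markers of smallest p that did not pass were the tight junction gene Cldn3, with a log2 change of 0.29 and adjusted p 0.16, and the transcription factor Spdef, at −0.33 and 0.18 (limma). Of the luminal markers at an unadjusted p under 0.05, Dpp4, Cldn3 and Epcam were higher, and Spdef and Pbsn lower (limma). The pan-epithelial adhesion gene Epcam had intensities of 3554 ± 187 and 4068 ± 120 (SD, n = 3 each), with a log2 change of 0.19 (adjusted p 0.36), and the cadherin Cdh1 stood at 0.15 (0.46, limma), so neither passed.

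Genes that anchor or organise keratin filaments showed a single call. Of 14 desmosome genes, which join filaments of neighbouring cells, Perp was called higher, 0 were lower and 13 were not called, with a median log2 change of 0.058. Of 8 hemidesmosome genes, which tie filaments of basal cells to the basement membrane, 0 were called (1 had an unadjusted p under 0.05), with a median of 0.079. The laminin gene Lama3 had a log2 change of 0.25 (adjusted p 0.41, limma). The integrin Itga6, from 716.9 ± 30.2 to 881.5 ± 34.5 (SD, n = 3 each), had the smallest p of these, an adjusted p of 0.16. Of 5 other keratin-binding genes, 0 were called and 0 had an unadjusted p under 0.05. The same held for 16 intermediate filament genes other than keratins, among them the nuclear lamin gene Lmnb2 (log2 change 0.17, adjusted p 0.49) and the mesenchymal filament gene Vim (0.39, 0.50, limma). Of 23 transcription factors of epithelial differentiation 0 were called, and 7 had an unadjusted p under 0.05, of which Tfap2a alone was lower. The smallest p were those of Tfap2a, at a log2 change of −0.29 (adjusted p 0.21), and Notch1, at 0.26 (0.25, limma).

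Summed intensities of several epithelial lists did not overlap between genotypes. Of all single genes 19.1% did not overlap either, and no such share was taken for sums of genes. The luminal sums did overlap, at 36010 to 36835 in wild-type and 36374 to 37292 in transgenic mice. Those of intermediate filament genes other than keratins overlapped too, at 2858 to 3023 and 2752 to 3175. Basal markers summed to 5395 to 6062 in wild-type and 6552 to 6762 in transgenic mice, desmosome genes to 5737 to 6094 and 6515 to 6678, and hemidesmosome genes to 3621 to 4089 and 4147 to 4493. Abundant genes weigh most in such sums. The gene left out of each list here was instead that of smallest p in limma, so leaving it out favoured a smaller gap. Cd151 was more abundant than Itga6, and Clu more abundant than Aldh1a1. Without Perp the basal sums overlapped, at 4304 to 4895 and 4841 to 5183. So did the desmosome sums, at 4531 to 4927 and 4846 to 5031. Without Itga6 the hemidesmosome sums overlapped too, at 2932 to 3340 and 3304 to 3581. Proximal duct markers summed to 7577 to 9143 and 9166 to 9697. Without Aldh1a1 the sums lay the other way, at 5909 to 7134 in wild-type and 5442 to 5824 in transgenic mice. Clu, which was not called, made up most of those sums. It stood at 4321, 5438 and 4895 in wild-type and 3866, 3743 and 4002 in transgenic mice. No sum without both genes was taken, so a fall of the other markers was not shown. Transcription factors summed to 14462 to 14997 and 15200 to 15658. Sums of keratin-binding genes were lower in transgenic mice by a small gap, at 2216 to 2605 and 2171 to 2209. Pnn alone gave 1297 to 1509 and 1215 to 1258 of these, and the median log2 change of the list was −0.019. For the transcription factors and the keratin-binding genes no sum with a gene left out was taken.

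**Figure D5:**
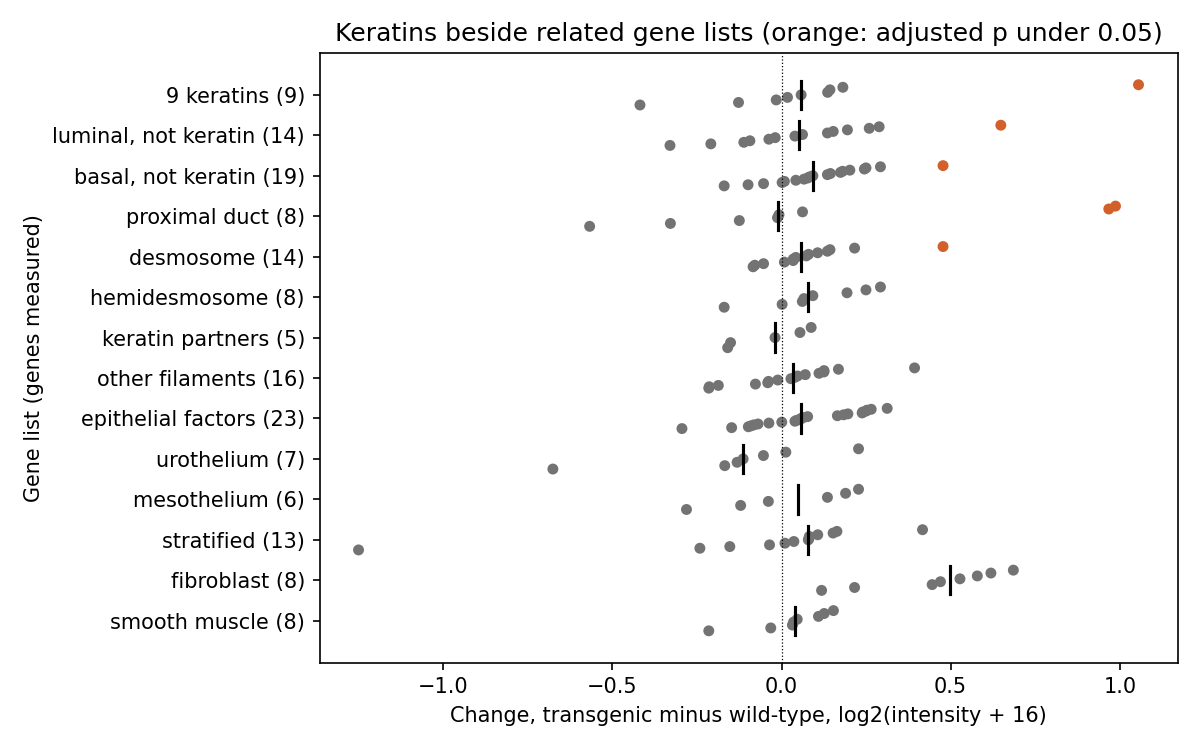
Change in log2(intensity + 16), transgenic minus wild-type, of the 9 keratins and of each measured gene on 13 related lists, with black bars at medians and orange for an adjusted p under 0.05. Orange points are Krt7, Dpp4, Perp (on the basal and desmosome lists), Aldh1a1 and Psca.

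Krt7 is also known from urothelium and mesothelium, which can be carried along in dissection, and from other ducts. Of 7 urothelium genes 0 were called, and 1, Upk1a, had an unadjusted p under 0.05. Their summed intensity ran from 3169 to 3908 in wild-type and from 2492 to 3037 in transgenic prostates. Without Upk1a the sums of the other 6 overlapped, at 1206 to 1322 and 1193 to 1445. The part of these cells in the Krt7 values was not tested. The uroplakin Upk1a stood at a log2 change of −0.68 (adjusted p 0.083, limma) and Upk1b at 0.013, and the urothelial keratin Krt20 lay below the background scale in the mean. Of 6 mesothelium genes 0 were called and 0 had an unadjusted p under 0.05, and their sums overlapped, at 396.5 to 538.5 and 465.4 to 482.2. The mesothelial marker Msln had means of 90.3 and 85.2, within the range of the background scale.

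Among genes of the male ducts and glands around the prostate, some rose in transgenic mice and others fell. Of 8 measured vas deferens and epididymis genes, 2 were called higher, Adam7 (log2 change 2.41, adjusted p 8.6e-06) and Wfdc8 (0.82, 0.0038), and 0 lower (limma). With them, 4 of the 8 had an unadjusted p under 0.05, and the median log2 change was 0.023. The other 2 were lower, Rnase10 (−0.31, adjusted p 0.27) and Lcn5 (−0.30, 0.36, limma). The summed intensity of the list ran from 318.7 to 389.6 in wild-type and 488.5 to 519.0 in transgenic prostates, and from 304.4 to 369.9 and 338.0 to 353.2 without Adam7. Over all 6 arrays 0 of the 8 had a mean above 91.9, but Adam7 stood at 161.9, 165.8 and 150.5 in the transgenic mice, above the background scale, and at 14.3 to 19.7 in the wild-type mice. Of 9 seminal vesicle genes, 1 was called higher, Ceacam10 (4.03, 7.4e-07), and 1 lower, Svs3a (−1.43, 0.019), with sums from 766 to 4882 in wild-type and 2575 to 9932 in transgenic prostates. The call on Svs3a was lost without wild-type mouse 2, transgenic mouse 1 or transgenic mouse 3 (adjusted p up to 0.11). Without wild-type mouse 1 and transgenic mouse 3, the seminal vesicle sums were 766 and 930 in wild-type and 3597 and 2575 in transgenic prostates. Ceacam10, at 39.1 and 39.8 against 890 and 949, and Pate4, at 25.25 and 36.73 against 1782 and 1203, weighed most in that split. Svs2, Svs4 and Svs5 lay under the background scale in transgenic mouse 2, at 24.6, 60.3 and 15.5, as in wild-type mice 2 and 3. In transgenic mouse 1, Svs4 and Svs5 stood at 249 and 345, and Svs3a was lower in both transgenic mice. The part of these tissues in the rise of Krt7 was not tested.

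Of the lists of connective tissue, vessel and blood cells, summed intensities did not overlap between genotypes for endothelium and leukocytes, which lay higher in the transgenic mice, and overlapped for fibroblasts. Of 8 fibroblast genes 0 were called (4 had an unadjusted p under 0.05), with a median log2 change of 0.50 and sums from 4105 to 5680 in wild-type and 5328 to 7702 in transgenic prostates. Of 4 endothelial genes 1 was called higher, the cadherin Cdh5, at 0.93 ± 0.12 (SE) with an adjusted p of 0.0096 in limma, with list sums from 399.1 to 488.9 and 544.5 to 603.4. Without Cdh5 the sums of the other 3, Pecam1, Kdr and Tie1, overlapped, at 323.6 to 381.5 and 376.0 to 404.8, and none of them passed. The call on Cdh5 was lost without wild-type mouse 2, transgenic mouse 2 or transgenic mouse 3 (adjusted p up to 0.065). Of 6 leukocyte genes 0 were called (2 had an unadjusted p under 0.05), with sums from 506.8 to 695.2 and 721.7 to 928.9; the antigen-presentation gene Cd74 stood at a log2 change of 0.87 (adjusted p 0.17, limma). Without Cd74 the leukocyte sums still did not overlap, at 390.9 to 505.7 and 523.5 to 584.9. Of 8 smooth muscle genes 0 were called and 0 had an unadjusted p under 0.05, and of 8 skeletal muscle genes 0 were called and 3 had one. Of 13 genes of stratified and cornifying epithelium 0 were called and 1 had one, with overlapping sums. The part of these cell types in the keratin values was not tested.

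The genes whose log2 intensities ran most like those of Krt7 over the 6 arrays, among 11727 genes with a mean above 91.9, were Adam15, a metalloprotease, the secreted protein gene Scube2 and the topoisomerase gene Top2b. Their Pearson r with Krt7 was 0.997, 0.996 and 0.996, as a description over 6 arrays that share the genotype split, and 197 genes had an r over 0.95. Scube2 went from 136.7 ± 9.42 to 277.7 ± 6.56 (SD, n = 3 each), a log2 change of 0.95 (adjusted p 7.9e-04, limma). Adam15 rose by 0.46 on the log2 scale (adjusted p 0.021), while Top2b, at 0.36 (0.068), did not pass (limma). The call on Adam15 was lost without wild-type mouse 2 or any 1 transgenic mouse (adjusted p up to 0.11). For Krt8 the nearest genes were Glb1l3, Fanca and Tubb2a (r 0.997, 0.995 and 0.994), and for Krt5 Wdr26, Ap2s1 and Agrn (0.990, 0.980 and 0.978); none of these 6 passed the test.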

How the data were processed

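Total RNA of the dissected prostates was extracted by the authors, who treated it with DNase and biotinylated it with an Affymetrix whole-transcript kit, per the labels' protocols. The deposited table held 1 intensity per probe set and array on a linear scale, from 0.87 to 21952. Background correction, summarisation and normalization are not given in the sources read here, and nothing was normalized again in the main result.

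Of the probe sets, 6568 with identifiers up to 10344613 were taken for controls and left out, which left 28944. Symbols came from the platform annotation, and 21789 probe sets had a single one. Where a gene had several, that of highest mean intensity was kept. The test was two-sided, between 3 transgenic and 3 wild-type arrays with no covariate, on log2(intensity + 16); lmFit and eBayes came from limma 3.58.1 (R 4.3.3), and p-values were adjusted by Benjamini-Hochberg over the 28944 probe sets. Intervals of 95% are from the same fit. The constant of 16 understates changes of dim genes. The script was tested on simulated data.

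The members and gene lists were chosen with earlier results of these data known. Named by rule were the 9 members, other keratins past the threshold or the 3 of smallest p, up to 4 genes past the threshold and the 2 of smallest p otherwise on each list (of the latter only some are printed), and the 3 genes most like Krt7, Krt5 and Krt8. Pbsn, Epcam, Cdh1, Vim, Upk1b, Msln, Svs2, Svs4 and Svs5 were named outside that rule, after their values were seen. A gene on 2 lists was counted on both. Genes left out of list sums were chosen after seeing the data. Each sample is labelled as a separate mouse. Neighbouring genes and promoters came from RefSeq, assembly GRCm38.p6. Alternatives were added constants of 1 and 64, array weights, quantile normalization, the mouse number as a block, median centring, a test without the dimmest 40% of probe sets, robust variances with an intensity trend and, in turn, each array left out; leaving out wild-type mouse 1 and transgenic mouse 3 together was chosen after seeing the data. No scan date or batch was used here.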

Additional observations from a re-analysis of the deposited data

How the results depend on the processing

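Krt7 was called higher in all 15 alternative settings (log2 change 0.96 to 1.12, adjusted p at most 0.0155, limma), and none of the other 8 keratins was called in any setting where it was tested; Krt4 came nearest, at an adjusted p of 0.057 with array weights. Krt17 was not tested without the dimmest 40% of probe sets. In each setting 1 of the 9 keratins and 1 keratin of the whole family were called. The average over several probe sets of a gene was not run, since every member had 1.

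The number of probe sets called, 425, moved to 1202 with array weights, to 678 with robust variances and an intensity trend, to 250 under a replicate block on mouse number, and to between 234 and 519 without single arrays. It was 254 without wild-type mouse 2 and 248 and 234 without transgenic mice 2 and 3. Leaving out wild-type mouse 1 and transgenic mouse 3 together, chosen after seeing the data, gave 237. Mice that share a number were not treated as pairs in the main test, since the labels only number them. The correlations of their deviations from the genotype means were −0.044, 0.046 and −0.16. With 3 arrays a genotype, these cannot show whether the mice were paired. Under the replicate block Krt7 had an adjusted p of 0.0155, and the calls on Perp (0.18), Dpp4 (0.086), Psca (0.061), Cdh5 (0.057) and Adam15 (0.14) were lost (limma).

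Signs turned only for genes near 0 that were not called, and the cause was not tested. With array weights the log2 changes were −0.15 for Krt5, −0.15 for Krt15, 0.020 for Krt18, −0.11 for Wdr26, −0.039 for Ap2s1 and −0.043 for Agrn. With median centring they were −0.021 for Krt15, −0.020 for Wdr26 and −0.0081 for Ap2s1, and with quantile normalization −0.0059 for Krt15. Without wild-type mouse 1 and transgenic mouse 3 together they were −0.069 for Krt5, −0.13 for Krt15, 0.017 for Krt18, −0.078 for Wdr26 and −0.015 for Ap2s1. Without single arrays they ran from −0.040 to 0.22 for Krt5, −0.12 to 0.14 for Krt15, −0.044 to 0.034 for Krt18, −0.049 to 0.12 for Wdr26 and −0.0099 to 0.083 for Ap2s1.

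The calls on Perp (0.079 with an added constant of 1) and, in the fit without both of those mice, on Perp (0.26), Psca (0.1001), Wfdc8 (0.074) and Adam15 (0.17) were lost, and Top2b was called in 4 settings (adjusted p down to 0.0052). Signal limits what can be said of Krt17 and of the 30 other keratins whose means did not exceed the highest background value.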
